A study of Homo sapiens with 90 samples.

Results

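Nuclear receptors are transcription factors that small ligands such as steroids, retinoids, thyroid hormone, vitamin D, fatty acids, oxysterols and bile acids can bind and switch on. Most bind hexameric half-sites in DNA as monomers, homodimers or heterodimers with a retinoid X receptor (RXR), and they act through coactivators and corepressors. They are described here in A673 cells, a line derived from Ewing sarcoma with the EWSR1-FLI1 fusion gene, after exposure to 3 agricultural chemicals, with 2 questions: which receptors had signal above background, and whether the signal changed with a chemical. The members were the 42 genes of a fixed list of the superfamily, which holds neither the NR4A receptors nor NR0B1, and each was taken from probe sets annotated to it alone. By that rule 36 of the 42 had a probe set of their own, among 19774 genes with one on the array, and they held 114 probe sets. NR1H2, NR1H4, NR1I2, NR2F2 and HNF4A had no such probe set and are named only, and the 3 probe sets of NR1D1 were shared with THRA and were not used for either gene. Where a member had several probe sets, the one with the highest mean over all 90 columns stood for it.

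Cells were exposed for 24 h to fenbuconazole, a triazole fungicide, imazalil, an imidazole fungicide, or 2,4-D, a phenoxyacetic acid herbicide, each at 9 concentrations from 0.001 to 10 µM with 3 arrays per concentration. With 3 columns of the DMSO vehicle (0.2%), which all treated cells received as well, each chemical had a set of 30 columns. Values were log2 intensities that had been normalized within a set, so that a level had no meaning across sets or between probe sets, and array medians ran from 2.76 to 2.83, 3.34 to 3.39 and 3.40 to 3.46 in the fenbuconazole, imazalil and 2,4-D sets. The model was 1 cell line, and in its bulk RNA fewer expressing cells and less RNA per cell cannot be told apart. Of 8 Ewing sarcoma markers 7 were above background in all 3 sets (CD99, NKX2-2, STEAP1, LIPI, PRKCB, CCND1 and NPY1R, but not FATE1), against 1 of 8 hepatocyte markers (AHSG) and 3 of 8 breast epithelial markers (GATA3, KRT8 and KRT18). Albumin (ALB) and TFF1, defining markers of the other lines of the study, were not above it. The sum of a list's log2 levels is comparable between arrays of a set, and not between sets or lists. Over the arrays of all 3 sets it ran from 69.9 to 77.3 for the Ewing list, 21.4 to 28.7 for the hepatocyte list and 32.4 to 38.7 for the breast list. These ranges thus include the offset between sets. The labels call the same 3 DMSO arrays common to the sets. Over 54613 probe sets, each vehicle column was taken as its deviation from the mean of all 30 columns of its set. The correlation between same-numbered columns was 0.867 to 0.878 for imazalil and 2,4-D, and 0.105 to 0.198 for fenbuconazole and either other set. Between columns of different number it was -0.15 to -0.0886 in the former case and -0.12 to 0.126 in the latter. The imazalil and 2,4-D comparisons with DMSO therefore shared their controls, while whether the vehicle columns of the fenbuconazole set come from the same arrays is not settled by these correlations.

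Signal above background was judged against olfactory receptor genes, which cells outside the olfactory epithelium do not usually transcribe. The background level of a set was the 95th percentile of the set means of 83 such genes, 3.02, 3.50 and 3.59 in the fenbuconazole, imazalil and 2,4-D sets, the order kept below. By this measure 17 of the 36 receptors (47.2%) were above background in all 3 sets, 18 in none, and VDR in 2 of the sets only. Of all 19774 genes, 55.7% were above it in all 3 sets. At least 1 retinoid X, retinoic acid, thyroid hormone, estrogen-related, PPAR, REV-ERB and LXR gene was above background, as was the glucocorticoid receptor, while no probe set of the mineralocorticoid or progesterone receptor was.

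**Figure D1:**
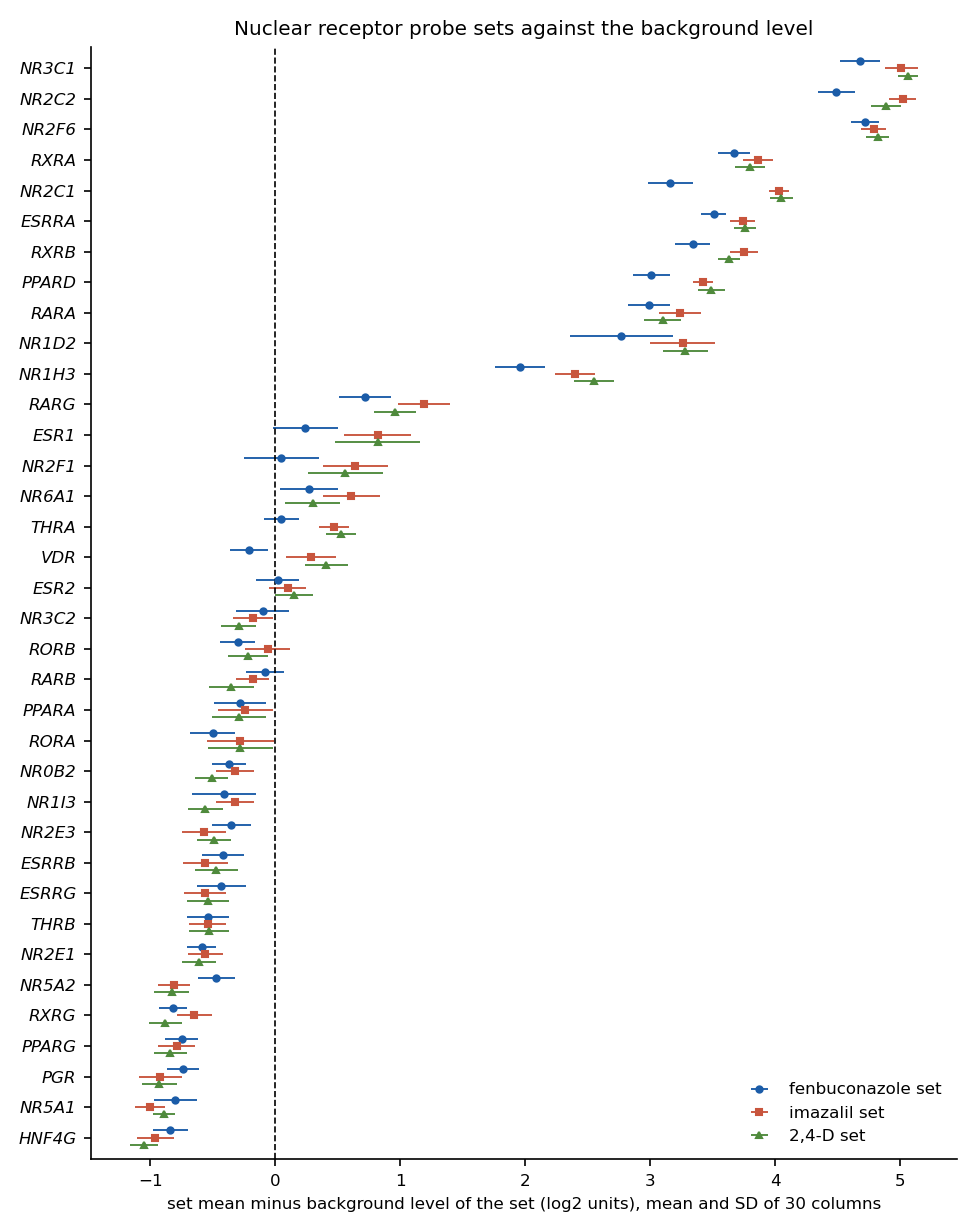
Set mean of each of the 36 receptors minus the background level of its set (horizontal axis, log2 units, mean with SD of 30 columns as bars) for the fenbuconazole (circles), imazalil (squares) and 2,4-D (triangles) sets. From NR1H3 upward 11 receptors stood more than 1 log2 unit above the dashed background line in all 3 sets, and 6 others (RARG, ESR1, NR2F1, NR6A1, THRA and ESR2) stood above it in all sets by less in at least 1. Different probe sets bind with different strength, so the vertical order is not an order of RNA amounts.

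Among steroid receptors, NR3C1, the glucocorticoid receptor, had log2 levels of 7.70 ± 0.16, 8.51 ± 0.13 and 8.65 ± 0.08 (mean ± SD, n = 30 columns), and 4 of its 5 probe sets were above background in each set. NR3C2, the mineralocorticoid receptor, had 2.92, 3.32 and 3.30 from its 1 probe set and PGR, the progesterone receptor, 2.28, 2.58 and 2.66, below background in all sets. ESR1, the estrogen receptor alpha, was above it through 1 of its 8 probe sets (3.25 ± 0.26, 4.32 ± 0.27 and 4.41 ± 0.34). That probe set carries the suffix of those that can match other transcripts as well, and the other 7 were below background in every set. ESR2, the estrogen receptor beta, had 3.04 ± 0.17, 3.60 ± 0.15 and 3.73 ± 0.15, at most 0.15 above background, with 1 of 6 probe sets above. Of the estrogen-related receptors, which work without an estrogen and regulate mitochondrial genes, ESRRA was above background with both of its probe sets (6.53 ± 0.10, 7.24 ± 0.10 and 7.35 ± 0.09). ESRRB (2.59, 2.93 and 3.11) and ESRRG (2.58, 2.94 and 3.04) were not.

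The RXRs are the shared dimer partners of many other members. RXRA had log2 levels of 6.68 ± 0.13, 7.36 ± 0.12 and 7.39 ± 0.12 and RXRB of 6.35 ± 0.14, 7.24 ± 0.11 and 7.22 ± 0.09, each with 2 probe sets above background, while RXRG had 2.19, 2.84 and 2.71 and was not above it. Of the retinoic acid receptors, RARA had 6.00 ± 0.17, 6.74 ± 0.17 and 6.69 ± 0.15 and RARG 3.73 ± 0.21, 4.69 ± 0.21 and 4.55 ± 0.17, the latter through 1 of 3 probe sets, and RARB had 2.94, 3.32 and 3.24, below background with all 4. THRA, the thyroid hormone receptor alpha, was above it through 1 of 4 probe sets (3.06 ± 0.14, 3.97 ± 0.12 and 4.12 ± 0.12), and THRB was not (2.47, 2.95 and 3.06). PPARD, the PPAR delta, which binds fatty acids, had 6.03 ± 0.15, 6.91 ± 0.08 and 7.08 ± 0.11. PPARA, the target of fibrates, had 2.74, 3.26 and 3.29 with none of 8 probe sets above background, and PPARG, the regulator of fat cell formation, had 2.26, 2.71 and 2.75.

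NR1H3, the oxysterol receptor LXR alpha, had log2 levels of 4.98 ± 0.20, 5.89 ± 0.16 and 6.13 ± 0.16 from its 1 probe set. NR1D2, the clock repressor REV-ERB beta, had 5.79 ± 0.41, 6.75 ± 0.26 and 6.87 ± 0.18 with both probe sets above background. Its SD in the fenbuconazole set was the largest of the 36 members there, and single columns ran from 4.61 to 6.55. RORA, an activator at the same clock elements, had 2.51, 3.22 and 3.31 with none of 10 probe sets above background, and RORB had 2.72, 3.44 and 3.37. VDR, the vitamin D receptor, stood at 2.81 ± 0.15, 3.79 ± 0.20 and 4.00 ± 0.17, below background in the fenbuconazole set and above it in the others. There it was above background through 1 of its 4 probe sets. NR1I3, the constitutive androstane receptor CAR, a xenobiotic sensor of the liver, had 2.61, 3.18 and 3.02 with neither probe set above background.

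The testicular receptors NR2C1 (6.18 ± 0.18, 7.53 ± 0.08 and 7.64 ± 0.09) and NR2C2 (7.51 ± 0.15, 8.52 ± 0.11 and 8.48 ± 0.12) and the COUP-TF-like repressor NR2F6 (7.73 ± 0.11, 8.28 ± 0.10 and 8.41 ± 0.09) were among the 11 members more than 1 log2 unit above background. NR2F1, the COUP-TF1 of neural development, was above it by 0.05 in the fenbuconazole set and by 0.64 and 0.56 in the others (3.07 ± 0.30, 4.13 ± 0.26 and 4.15 ± 0.30). This was through 1 of its 2 probe sets, and the other was below background in every set (2.78, 3.40 and 3.50). NR6A1, the germ cell nuclear factor, was above it with 3 of 5 probe sets in each set (3.28 ± 0.23, 4.10 ± 0.23 and 3.89 ± 0.22). These were not the same 3 in each set, and only the brightest was above it in all. The remaining members were below background in all sets: NR2E1 (2.42, 2.93 and 2.98) and NR2E3 (2.66, 2.92 and 3.10), which act in brain and retina, HNF4G (2.17, 2.54 and 2.53) of gut and kidney epithelium, NR5A1 (2.22, 2.49 and 2.70) and NR5A2 (2.55, 2.68 and 2.76) of steroid-making tissue and liver, and NR0B2 (2.65, 3.18 and 3.07), the corepressor SHP. Of the 16 members above background that had several probe sets, 11 had at least 2 above it in each set, which for NR6A1 were not the same ones throughout.

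Promoter sequences from RefSeq (GRCh38.p14, 250 bases before to 50 after a start, the first start listed for a gene) matched 38 of the 42 members. Their CpG dinucleotides are described because promoters of broadly used genes are often rich in them. The median was 24.5 CpG in the 16 promoters of receptors above background, from 2 to 65, and 14.5 in the 16 of receptors above it in no set, from 0 to 52, with 14 over all 27305 symbols. The ranges overlapped widely. The nuclear receptor half-site AGGTCA, on either strand (TGACCT on the other), was in 6 of the 38 member promoters (15.8%) and in 13.9% of all promoters. The 250 bases before the only listed start are given for NR2C2 and ESRRA, above background, and for NR1I3 and NR2E3, below it, as examples of a rich and a poor promoter that were chosen for this contrast. CpG is in capitals, and they hold 39, 35, 2 and 7.
NR2C2, chr3:14947333-14947582, plus strand: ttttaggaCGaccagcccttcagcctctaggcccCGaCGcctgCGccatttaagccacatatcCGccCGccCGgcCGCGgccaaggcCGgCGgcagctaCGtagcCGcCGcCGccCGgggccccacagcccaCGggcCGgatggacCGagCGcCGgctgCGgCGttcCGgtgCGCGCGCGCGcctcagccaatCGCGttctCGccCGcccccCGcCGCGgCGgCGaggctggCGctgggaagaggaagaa
ESRRA, chr11:64305274-64305523, plus strand: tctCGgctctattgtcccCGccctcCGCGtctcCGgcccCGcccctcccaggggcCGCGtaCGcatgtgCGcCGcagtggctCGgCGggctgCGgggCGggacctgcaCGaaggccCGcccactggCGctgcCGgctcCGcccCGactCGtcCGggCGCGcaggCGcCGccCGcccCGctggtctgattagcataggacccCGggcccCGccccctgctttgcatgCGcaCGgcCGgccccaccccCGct
NR1I3, chr1:161238204-161238453, minus strand: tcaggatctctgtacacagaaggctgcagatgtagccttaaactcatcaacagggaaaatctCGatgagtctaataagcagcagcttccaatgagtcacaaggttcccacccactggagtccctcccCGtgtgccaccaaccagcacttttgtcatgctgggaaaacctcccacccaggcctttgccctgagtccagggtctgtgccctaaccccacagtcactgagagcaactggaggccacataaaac
NR2E3, chr15:71810304-71810553, plus strand: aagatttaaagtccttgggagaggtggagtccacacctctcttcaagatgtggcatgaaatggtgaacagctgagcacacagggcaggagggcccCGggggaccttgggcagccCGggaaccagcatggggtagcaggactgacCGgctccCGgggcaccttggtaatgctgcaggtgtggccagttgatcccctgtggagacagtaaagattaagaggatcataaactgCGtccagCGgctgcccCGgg

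No receptor passed the test at 10 µM of any chemical against DMSO (limma, Benjamini-Hochberg over 54613 probe sets, threshold 0.05). The background of this comparison was also 0% of probe sets called for fenbuconazole, 0% for imazalil and 0% for 2,4-D. An unadjusted p under 0.05 was reached by 2 of 36 members for fenbuconazole (NR1I3 and NR3C2), 4 for imazalil (NR2F1, NR3C2, NR2E3 and PPARA) and 2 for 2,4-D (VDR and PPARD), where 7%, 4.75% and 3.85% of all probe sets did. Of these 8 results 2, NR2F1 and PPARD, belonged to receptors above background in all sets. The median log2 change of the 36 members was -0.01, 0.00 and -0.02, and that of all probe sets 0.00, 0.00 and -0.01. Values at 10 µM and in DMSO did not overlap for 7, 8 and 3 members, and for 11.2%, 7.97% and 7.01% of all probe sets. Among receptors above background in all sets these were NR2F1 (higher) and NR2F6 (lower) for fenbuconazole, ESRRA and NR2F1 (higher) and RXRA and PPARD (lower) for imazalil, and ESRRA (higher) for 2,4-D. VDR, above background in the imazalil and 2,4-D sets only, was lower without overlap for 2,4-D.

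**Figure D2:**
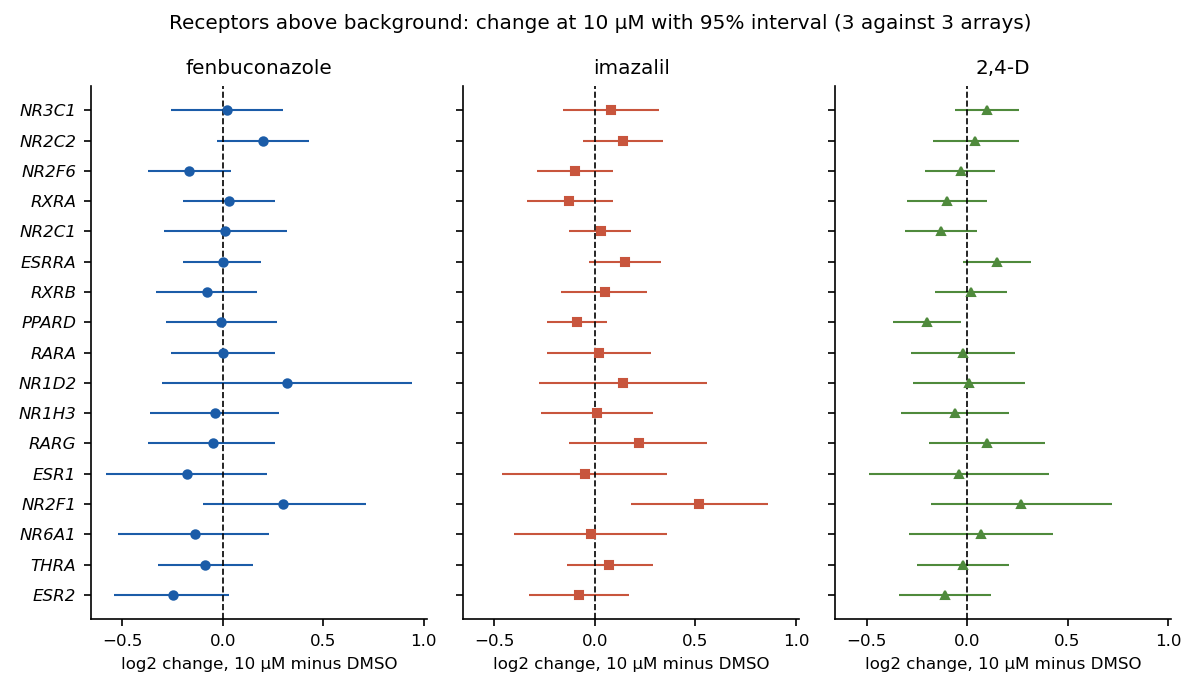
Log2 change at 10 µM minus DMSO (horizontal axis, log2 units, points with 95% intervals as bars, 3 arrays against 3) of the 17 receptors above background, for fenbuconazole, imazalil and 2,4-D. Intervals span 0 except those of NR2F1 for imazalil (0.18 to 0.86) and PPARD for 2,4-D (-0.37 to -0.03), and none of the differences passed after adjustment.

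The intervals show how large a change these arrays leave room for. For the 17 receptors above background, log2 changes at 10 µM ran from -0.25 to 0.32 for fenbuconazole, -0.13 to 0.52 for imazalil and -0.20 to 0.27 for 2,4-D. Among the 11 that were more than 1 log2 unit above background, a group chosen after the levels were seen, the intervals without NR1D2 lay within a fold of 0.772 to 1.35 for fenbuconazole, 0.788 to 1.26 for imazalil and 0.774 to 1.25 for 2,4-D. These intervals are for single members and were not widened for their number. NR1D2 alone allowed a fold of up to 1.92 for fenbuconazole and 1.48 for imazalil.

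For fenbuconazole, the largest changes of members above background belonged to NR1D2, NR2F1, ESR2 and NR2C2. NR1D2 read 6.03, 5.81 and 5.83 on the 3 arrays at 10 µM and 5.68, 4.99 and 6.04 in DMSO. The vehicle values spread over more than 1 log2 unit and enclosed the treated ones, and the difference was 0.32 (SE 0.30, 95% interval -0.30 to 0.94, adjusted p = 0.876). It was 0.07 without replicate 2 and 0.58 without replicate 3. NR2F1 read 3.05, 3.04 and 3.33 against 2.88, 2.60 and 3.04, with no overlap before rounding and a difference of 0.30 (SE 0.20, 95% interval -0.10 to 0.71, adjusted p = 0.799). ESR2 read 2.93, 3.10 and 2.70 against 3.24, 3.45 and 2.79, with overlap and a difference of -0.25 (SE 0.14, 95% interval -0.54 to 0.03, adjusted p = 0.751). NR2C2 read 7.42, 7.52 and 7.39 against 7.31, 7.00 and 7.41, a difference of 0.20 (SE 0.11, 95% interval -0.03 to 0.43, adjusted p = 0.761) that was 0.04 without replicate 2, whose vehicle array was the lowest. NR2F6 read 7.67, 7.64 and 7.61 against 7.81, 7.78 and 7.83, all 3 lower, with a difference of -0.17 (SE 0.10, 95% interval -0.37 to 0.04, adjusted p = 0.778). Against the other 8 concentrations of the set, without the vehicle columns, NR1D2 stood at 0.08 and NR2F1 at 0.05. NR2C2 stood there at -0.10, the other direction, and ESR2 and NR2F6 at -0.14 and -0.10. The part of the vehicle columns in these differences was not tested.

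For imazalil, the largest difference was that of NR2F1, which read 4.38, 4.23 and 4.09 at 10 µM and 4.05, 3.89 and 3.20 in DMSO. It was 0.52 (SE 0.17, 95% interval 0.18 to 0.86, adjusted p = 0.89), and the means of all 9 concentrations stood above the vehicle by 0.27 to 0.60, without order in concentration. The vehicle value of replicate 3 was the lowest of the 30 columns, and the difference was 0.34 without replicate 3. The same 3 arrays are the vehicle of the 2,4-D set, where NR2F1 read 4.20, 4.00 and 3.85 against 4.13, 3.86 and 3.26, with overlap. The difference there was 0.27 (95% interval -0.18 to 0.72) and without replicate 3 it was 0.11. RARG read 4.88, 4.35 and 4.69 against 4.58, 4.55 and 4.14, with overlap and a difference of 0.22 (95% interval -0.13 to 0.56) that was 0.43 without replicate 2 and 0.05 without replicate 3. ESRRA read 7.55, 7.28 and 7.27 against 7.25, 7.14 and 7.25, all 3 higher, with a difference of 0.15 (SE 0.09, 95% interval -0.03 to 0.33, adjusted p = 1) that was 0.08 without replicate 1. NR1D2 read 6.88, 6.74 and 6.93 against 6.62, 6.65 and 6.85, with overlap and a difference of 0.14 (95% interval -0.28 to 0.56) that was 0.08 without replicate 1.

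For 2,4-D, PPARD read 7.09, 6.96 and 6.73 at 10 µM and 7.12, 7.06 and 7.21 in DMSO. The groups overlapped, and the difference was -0.20 (SE 0.08, 95% interval -0.37 to -0.03, adjusted p = 1), or -0.06 without replicate 3. ESRRA read 7.44, 7.37 and 7.45 against 7.33, 7.16 and 7.32, without overlap, with a difference of 0.15 (SE 0.08, 95% interval -0.02 to 0.32, adjusted p = 1). NR2C1 read 7.55, 7.67 and 7.44 against 7.73, 7.65 and 7.67, with overlap and a difference of -0.13 (95% interval -0.31 to 0.05) that was -0.20 without replicate 2 and -0.08 without replicate 3. VDR, above background in this set, read 3.90, 3.83 and 3.77 against 4.51, 3.99 and 3.96, all 3 lower, with a difference of -0.32 (SE 0.12, 95% interval -0.57 to -0.08, adjusted p = 1) that was -0.17 without replicate 1. For imazalil, with the same vehicle arrays, VDR was at -0.06. PPARA and PPARG, which were not above background, had differences of 0.11 and 0.08.

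**Figure D3:**
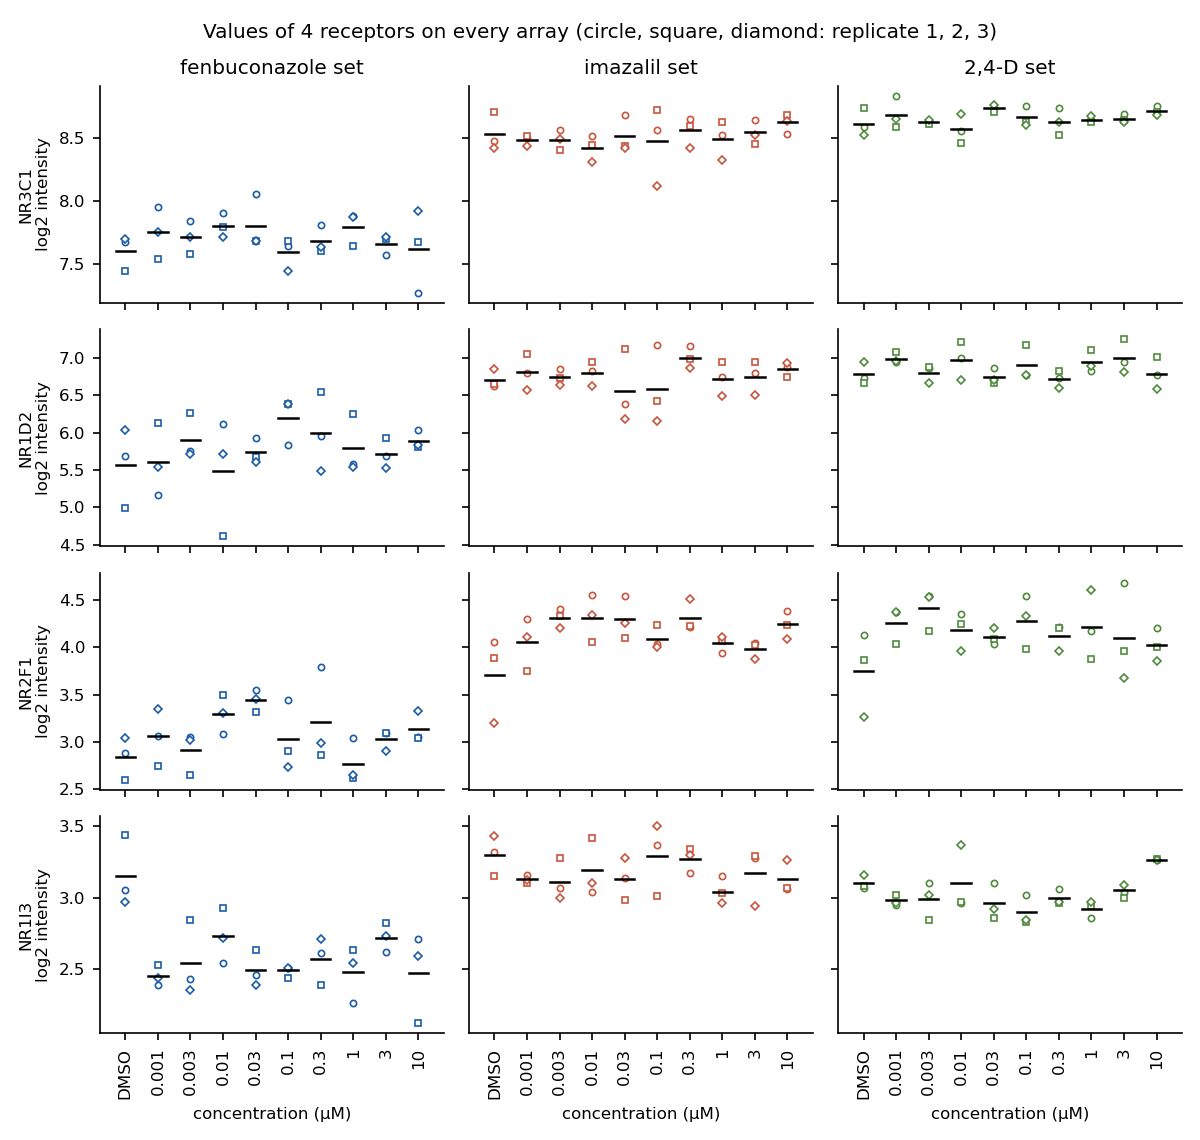
Log2 intensity (vertical axis) of NR3C1, NR1D2, NR2F1 and NR1I3 on every array of the fenbuconazole, imazalil and 2,4-D sets, from DMSO to 10 µM (horizontal axis). Circles, squares and diamonds are replicates 1, 2 and 3 and lines are group means. In the fenbuconazole set all 27 treated values of NR1I3 lie below the 3 DMSO values, and those of NR1D2 spread widely at single concentrations.

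Below background, the largest difference of any member was that of NR1I3 (CAR) in the fenbuconazole set. Its DMSO columns read 3.05, 3.44 and 2.97, and all 27 treated columns were lower, from 2.12 to 2.93 with a median of 2.54. The difference at 10 µM was -0.68 (SE 0.15, 95% interval -0.98 to -0.38, adjusted p = 0.23), or -0.36 without replicate 2, and at the 8 lower concentrations the difference ran from -0.70 to -0.42 with a smallest adjusted p of 0.172. The values at 10 µM did not stand apart from those at lower concentrations, and against them the difference was -0.09 (SE 0.11, adjusted p = 0.978). It was the vehicle columns that stood apart, in the set whose vehicle columns correlated least with those of the other sets, and the part of these columns in the result was not tested. In the imazalil set the difference of NR1I3 was -0.17 and in the 2,4-D set 0.16. NR3C2, the mineralocorticoid receptor, was at -0.40 for fenbuconazole (adjusted p = 0.55), 0.27 for imazalil (adjusted p = 0.997) and 0.19 for 2,4-D (adjusted p = 1). PPARA was at -0.33 and NR2E3 at -0.31 for imazalil (adjusted p = 1 and 1).

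The other comparisons along concentration called no member either. At the 8 lower concentrations no member passed in any set, where 7.63e-05% of all tests of a probe set at a concentration did. The overall test over 9 concentrations called no member in any set and 0% of probe sets in the fenbuconazole set, 0% in the imazalil set and 0% in the 2,4-D set. Along the trend with log10 concentration in the 27 treated columns, no member passed, against 0%, 0.00183% and 0% of probe sets. Across DMSO and the 9 concentrations, the group means of the 17 receptors above background spanned 0.16 to 0.71 in the fenbuconazole set, 0.14 to 0.60 in the imazalil set and 0.13 to 0.84 in the 2,4-D set. The widest span was that of ESR1 in the 2,4-D set, from 4.00 at 0.003 µM to 4.84 at 0.03 µM with a pooled SD within groups of 0.30, and the narrowest that of RXRB in the same set, 0.13 with an SD of 0.10. The smallest p of the trend belonged to NR1H3 in the fenbuconazole set, a slope of -0.07 per 10-fold concentration (SE 0.0248, adjusted p = 1).

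The comparison of 10 µM with the other 8 concentrations needs no vehicle. It called no member, against 0.00366%, 0.011% and 0.00183% of all probe sets for fenbuconazole, imazalil and 2,4-D. For fenbuconazole the members above background with the smallest p were RARA, NR1H3, ESR2 and ESRRA. RARA read 5.78, 5.78 and 6.00 at 10 µM and 5.80 to 6.45 with a median of 6.02 on the 24 other treated arrays, a difference of -0.19 (SE 0.10, adjusted p = 0.861), with 2 arrays just under the lowest of the others. NR1H3 read 4.72, 4.89 and 4.88 at 10 µM and 4.54 to 5.24 with a median of 5.04 on the 24 other treated arrays, all within the others, a difference of -0.17 (SE 0.12, adjusted p = 0.938). ESR2 stood at -0.14 (SE 0.10, adjusted p = 0.952) and ESRRA at 0.09 (SE 0.07, adjusted p = 0.953). For imazalil they were ESRRA, NR3C1, RXRA and THRA. ESRRA read 7.55, 7.28 and 7.27 at 10 µM and 7.05 to 7.37 with a median of 7.22 on the 24 other treated arrays, a difference of 0.14 (SE 0.07, adjusted p = 0.894), with replicate 1 above all others. NR3C1 read 8.53, 8.68 and 8.63 at 10 µM and 8.12 to 8.72 with a median of 8.50 on the 24 other treated arrays, all within the others, a difference of 0.12 (SE 0.09, adjusted p = 0.952). RXRA stood at -0.11 (SE 0.08, adjusted p = 0.953) and THRA at 0.09 (SE 0.08, adjusted p = 0.963). For 2,4-D, PPARD read 7.09, 6.96 and 6.73 at 10 µM and 6.84 to 7.28 with a median of 7.09 on the 24 other treated arrays, a difference of -0.16 (SE 0.06, adjusted p = 0.7), with replicate 3 below all others. NR1I3, below background, read 3.26, 3.27 and 3.26 at 10 µM and 2.83 to 3.37 with a median of 2.97 on the 24 other treated arrays, a difference of 0.28 (SE 0.07, adjusted p = 0.349). The last 2 were picked out after their values were seen.

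When every probe set of the members was looked at in place of the brightest, 1 of the 114 passed, and only when the other concentrations were pooled. With the 24 other treated arrays of the imazalil set pooled as 1 group, probe set 210426_PM_x_at of RORA passed at 0.42 log2 units higher (SE 0.08, adjusted p = 0.0345), where 0.0165%, 0.022% and 0.00366% of probe sets passed for fenbuconazole, imazalil and 2,4-D. It read 2.84, 3.14 and 3.25 at 10 µM, and 2.36 to 2.86 with a median of 2.64 at the other concentrations. All 3 values at 10 µM were below the background level of 3.50, and 1 of them lay within the range of the other 24. With each concentration as its own group the same change had an adjusted p of 0.0885. With the replicate block in the pooled comparison it was 0.0284, where 0.033% of probe sets passed. The suffix of this probe set is of the kind that can match other transcripts as well. Of the other 9 RORA probe sets, 5 were higher and 4 lower in the pooled comparison, from -0.23 to 0.26, and the brightest was at 0.18 (adjusted p = 0.883). The pooled comparison was added after the data had been seen.

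Between compounds at matched 10 µM, 3 pairs were compared by the difference of their changes from their own vehicle columns, adjusted over 54613 probe sets and the 3 pairs together. No member passed, and 0% of the tests over all probe sets did. Fenbuconazole and imazalil, which carry a triazole and an imidazole ring, differed most in NR3C2, by -0.67 (95% interval -1.01 to -0.34, adjusted p = 0.833). For NR3C1, the glucocorticoid receptor, the same difference was -0.07 (95% interval -0.38 to 0.25, adjusted p = 1), and for RXRA 0.16 (95% interval -0.13 to 0.45, adjusted p = 1). Fenbuconazole and 2,4-D differed most in NR1I3, by -0.84 (95% interval -1.19 to -0.49, adjusted p = 0.355), and imazalil and 2,4-D in NR2E3, by -0.44 (95% interval -0.80 to -0.08, adjusted p = 1). NR3C2, NR1I3 and NR2E3 were all below background, and these differences rest on the vehicle columns as well. Against the other 8 concentrations NR1I3 stood at -0.09 for fenbuconazole and 0.28 for 2,4-D. NR3C2 stood there at -0.29 for fenbuconazole and 0.11 for imazalil, and NR2E3 at -0.30 for imazalil and 0.21 for 2,4-D. The part of the vehicle columns was not tested. The shared vehicle arrays of the imazalil and 2,4-D sets entered the fit between compounds as separate arrays. Their values largely cancel in the difference of these 2 chemicals, while the fit counted their spread, so that its intervals and p for this pair are too large. An unadjusted p under 0.05 was reached by 0.859% of probe sets for this pair (limma). It was reached by 4.56% for fenbuconazole and imazalil and 5.06% for fenbuconazole and 2,4-D. Over the 17 receptors above background and the 3 pairs, the intervals of the difference lay between -0.80 and 1.00.

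Between replicate numbers, 1 receptor passed the test. The study's methods describe replicates as repeated experiments with separate cell batches, and the labels number them 1 to 3, with 10 columns per number in a set, without naming a number as a batch. With concentration kept as a factor, NR1H3 (LXR alpha) passed in the imazalil set (adjusted p = 0.0374) and the 2,4-D set (adjusted p = 0.0351) and was at 0.41 in the fenbuconazole set. It was the only 1 of 36 members in either set, and none passed in the fenbuconazole set. Of all probe sets 0.837%, 2.13% and 3.63% passed in the fenbuconazole, imazalil and 2,4-D sets. At an unadjusted p under 0.05 there were 6, 10 and 9 of 36 members, and 11.4%, 16.7% and 18.9% of all probe sets. The share of members called was near the background in each set.

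**Figure D4:**
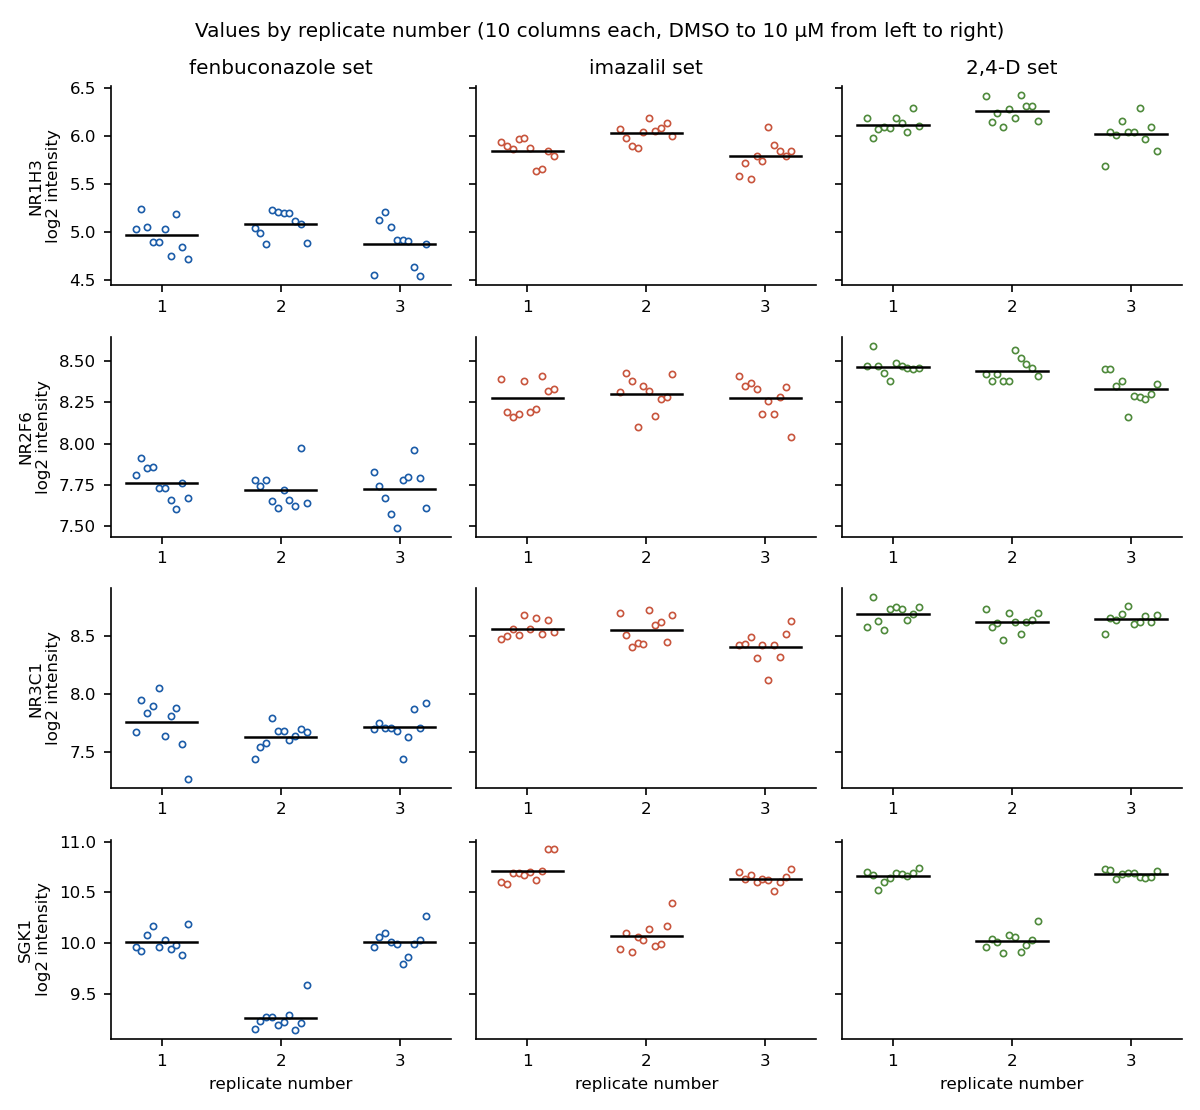
Log2 intensity (vertical axis) of NR1H3, NR2F6, NR3C1 and the glucocorticoid-responsive gene SGK1 by replicate number (horizontal axis, 10 columns each, from DMSO to 10 µM left to right) in the 3 sets. Lines are means. NR1H3 was highest in replicate 2 in every set, and SGK1 was lower in replicate 2 than in replicates 1 and 3 by a gap that no column crossed.

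NR1H3 had means of 5.85 ± 0.12, 6.04 ± 0.10 and 5.79 ± 0.15 in replicates 1, 2 and 3 of the imazalil set (± SD, n = 10 columns). The columns had lowest, median and highest values of 5.64, 5.88 and 5.98 in number 1, 5.88, 6.05 and 6.19 in number 2, and 5.56, 5.80 and 6.10 in number 3, so that the numbers overlapped. In the 2,4-D set the means were 6.12 ± 0.09, 6.26 ± 0.11 and 6.02 ± 0.16 and in the fenbuconazole set 4.97 ± 0.17, 5.08 ± 0.13 and 4.87 ± 0.23. Replicate 2 was highest and replicate 3 lowest in all 3 sets. With the DMSO columns left out, which the imazalil and 2,4-D sets share, the adjusted p was 0.0718 and 0.0574, past the threshold in neither. Without replicate 2 or 3 in the imazalil set, and without any 1 replicate in the 2,4-D set, 0 members were called. NR2F6, THRA and NR1D2 had the next smallest p, all in the 2,4-D set. NR2F6 had means of 8.47 ± 0.05, 8.44 ± 0.06 and 8.33 ± 0.09 (adjusted p = 0.0558), THRA of 4.13 ± 0.08, 4.21 ± 0.06 and 4.02 ± 0.13 (adjusted p = 0.0714) and NR1D2 of 6.84 ± 0.10, 6.99 ± 0.22 and 6.76 ± 0.14 (adjusted p = 0.0821). The second probe set of NR1D2 passed there (adjusted p = 0.026). With the DMSO columns left out, NR1D2 (adjusted p = 0.015) and NR2F6 (adjusted p = 0.0494) passed in the 2,4-D set in place of NR1H3, where 0.797%, 1.85% and 2.88% of all probe sets passed in the fenbuconazole, imazalil and 2,4-D sets.

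Coregulators, the proteins that receptors recruit to open or close chromatin, were followed through a list of 21 genes. Of these, 18 had a probe set and 17 were above background in all sets, beside 55.7% of all genes. None passed at 10 µM of any chemical against DMSO (limma), and their median difference was -0.04, 0.02 and -0.02. In each set 0 had an unadjusted p under 0.05, beside 7%, 4.75% and 3.85% of all probe sets. Against the other 8 concentrations none passed either, and the smallest adjusted p was that of LCOR, a ligand-dependent corepressor, at -0.27 for 2,4-D (SE 0.07, adjusted p = 0.388). Between replicate numbers 0, 1 and 2 of the 18 passed, beside 0.837%, 2.13% and 3.63% of all probe sets. PPARGC1B, a coactivator of mitochondrial genes, passed in the imazalil set (means 7.67 ± 0.10, 7.90 ± 0.07 and 7.71 ± 0.05, adjusted p = 0.00542), and PPRC1, its relative (means 7.51 ± 0.05, 7.34 ± 0.08 and 7.39 ± 0.10, adjusted p = 0.0267), and TBL1X, a subunit of the NCoR corepressor (means 8.25 ± 0.10, 8.47 ± 0.08 and 8.33 ± 0.05, adjusted p = 0.00599), in the 2,4-D set.

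Genes known as receptor targets were taken from a list of 59, of which 54 had a probe set and 28 were above background in all sets. Of all genes, 55.7% were above it in all sets. Signal of a target gene does not measure the activity of its receptor, which was not tested. At 10 µM against DMSO none passed for any chemical. An unadjusted p under 0.05 was reached by 2, 1 and 1 of the 54, beside 7%, 4.75% and 3.85% of all probe sets. This fit left out the replicate number. SGK1, picked after its values were seen, read 10.19, 9.58 and 10.27 at 10 µM fenbuconazole against 9.96, 9.15 and 9.96 in DMSO. For imazalil it read 10.93, 10.39 and 10.73 against 10.60, 9.94 and 10.70, and for 2,4-D 10.74, 10.22 and 10.71 against 10.70, 9.96 and 10.73. Each number was higher except replicate 3 of 2,4-D, and the groups overlapped in each set. With the replicate number as a block, CPT1A, a PPAR target, passed for imazalil at 0.66 (SE 0.09, adjusted p = 0.00953), where 0.00366% of probe sets did. In each set 0 of 4 farnesoid X receptor targets, 0 of 3 vitamin D receptor targets, 0 of 3 estrogen receptor targets and 1 of 4 targets of PXR and CAR were above background, beside 4 of 6 LXR targets and 4 of 8 PPAR targets. All 5 targets of the ERRs, among them ESRRA itself, and all 5 of the ROR and REV-ERB receptors were above it, as were 6 of 7 glucocorticoid receptor targets. Of 6 retinoic acid receptor targets 3, 3 and 2 were above it in the fenbuconazole, imazalil and 2,4-D sets, and of 3 thyroid hormone receptor targets 1 in each set. Against the other 8 concentrations CPT1A, which loads fatty acids for mitochondrial import, passed for imazalil with 0.63 (SE 0.08, adjusted p = 0.00243). It was the only call among the targets, where 0.011% of all probe sets passed. Without replicate 1, 2 or 3 in turn the difference was 0.59 to 0.69 and did not pass. Of its 4 probe sets another passed, with 0.77 (adjusted p = 0.0174). The others, with 0.49 (adjusted p = 0.0735) and 0.25 (adjusted p = 0.894), did not. Along the concentration trend only the probe set with 0.49 passed (0.17 per 10-fold concentration, adjusted p = 0.00475), where 0.00183% of probe sets did. The other PPAR targets measured did not pass, among them ANGPTL4 at 0.17 (adjusted p = 0.961), PDK4 at 0.02 (adjusted p = 0.996) and PLIN2 at 0.04 (adjusted p = 0.984), and PPARD stood at -0.02 (adjusted p = 0.995).

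Between replicate numbers 2, 5 and 7 of the 54 targets passed in the fenbuconazole, imazalil and 2,4-D sets, beside 0.837%, 2.13% and 3.63% of all probe sets. SGK1, a kinase gene that glucocorticoids induce, had the smallest p in each set. Its means in replicates 1, 2 and 3 were 10.01 ± 0.10, 9.25 ± 0.12 and 10.01 ± 0.13 in the fenbuconazole set, 10.71 ± 0.12, 10.07 ± 0.14 and 10.63 ± 0.06 in the imazalil set and 10.66 ± 0.06, 10.02 ± 0.09 and 10.68 ± 0.04 in the 2,4-D set (adjusted p = 2.91e-11, 5.07e-10 and 1.37e-11). DUSP1, a phosphatase gene induced by glucocorticoids and by stress, was lowest in replicate 2 as well, with 7.08 ± 0.12, 6.82 ± 0.09 and 6.98 ± 0.15 in the imazalil set (adjusted p = 0.0134) and 7.16 ± 0.06, 6.84 ± 0.11 and 7.12 ± 0.08 in the 2,4-D set (adjusted p = 7.8e-05). TSC22D3, the glucocorticoid-induced leucine zipper, was lowest in replicate 3, with 7.22 ± 0.09, 7.32 ± 0.09 and 7.11 ± 0.10 in the imazalil set (adjusted p = 0.0288) and 7.47 ± 0.09, 7.47 ± 0.09 and 7.29 ± 0.08 in the 2,4-D set (adjusted p = 0.0325), and FKBP5, another target, did not pass (adjusted p = 0.425, 0.397 and 0.391). The glucocorticoid receptor NR3C1 did not pass in any set (adjusted p = 0.704, 0.19 and 0.542), with means of 7.76 ± 0.23, 7.63 ± 0.10 and 7.71 ± 0.13 in the fenbuconazole set and 8.56 ± 0.07, 8.56 ± 0.12 and 8.41 ± 0.14 in the imazalil set. The LXR target SREBF1, the regulator of fatty acid synthesis, was highest in replicate 2 and lowest in replicate 3 in all sets, as NR1H3 was. It passed in the imazalil set (7.22 ± 0.11, 7.42 ± 0.09 and 7.11 ± 0.13, adjusted p = 0.00235) and the 2,4-D set (7.30 ± 0.10, 7.57 ± 0.16 and 7.20 ± 0.13, adjusted p = 9.48e-05). None of the other LXR targets measured passed in any set. HR, a corepressor gene that thyroid hormone induces, was lowest in replicate 2 and passed in the fenbuconazole set (adjusted p = 0.00468) and the 2,4-D set (adjusted p = 0.00271). The remaining calls were ANGPTL4 in the imazalil and 2,4-D sets and ACADVL in the 2,4-D set. With the DMSO columns left out, TSC22D3 and ANGPTL4 no longer passed in the imazalil set (adjusted p = 0.0568 for both) or in the 2,4-D set (adjusted p = 0.0596 and 0.0648), and CPT1A passed in the 2,4-D set (adjusted p = 0.0341). Without replicate 2, 0 of the 54 targets were called in each set. What a replicate number stands for was not tested.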

How the data were processed

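RNA of A673 cells was measured on HT HG-U133+ PM arrays of Affymetrix. The authors deposited log2 intensities that Partek had summarized by RMA (robust multi-array average), which corrects background and quantile-normalizes, once for each chemical with its vehicle columns, and per the labels the 90 columns fall into 3 such sets (software versions not given in the sources used here). The arrays carry no mismatch probes and the file no detection calls, so that background was set from 83 olfactory receptor genes. Manufacturer controls (102) were left out, which left 54613 probe sets, of which 40914 had 1 gene symbol, 864 several and 12835 none. Members and lists were chosen with earlier results of these data known.

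Changes were tested on the deposited log2 values with limma 3.58.1 in R 4.3.3 (lmFit, contrasts.fit, eBayes), 1 model per set, and Benjamini-Hochberg adjustment over all probe sets of a contrast. The script was tested on simulated data. The replicate number was not in the model, and the fit with it was an alternative. Members named with array values were those called, the 4 above background with the largest change at 10 µM per chemical, the 4 with the smallest p against the other 8 concentrations for fenbuconazole and imazalil, and the 4 with the smallest p between replicate numbers, and others were picked after their values were seen (NR2F6 and NR1I3 for fenbuconazole, VDR, PPARD and NR1I3 for 2,4-D, and RORA). The pooled comparison of 24 arrays, all probe sets of a member, the test without DMSO columns and the alternatives of the lists were added with the data in view. The number of arrays limits the precision. Figures were drawn with matplotlib 3.10.9 in Python 3.11.15.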

Additional observations from a re-analysis of the deposited data

How the results depend on the processing

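The count of members above background in all 3 sets, 17, was 17 and 12 with the 90th and 99th percentile of olfactory receptor genes, 14 with a wider background gene set, 12 with the median over a gene's probe sets and 16 from the DMSO columns only. The members lost were ESR1, ESR2, THRA, NR2F1 and NR6A1 at the 99th percentile, and ESR1, ESR2, THRA, RARG and NR2F1 with the median. No alternative called a member at 10 µM, at a lower concentration, in the overall test, along the trend, against the other 8 concentrations as separate groups or between compounds, and with the replicate block these counts were 0 as well. Same-numbered arrays had deviations from their group means that correlated at a mean r of 0.042, 0.0689 and 0.0781, with single pairs below 0. Arrays of different number had a mean r of -0.021, -0.0345 and -0.039. Of 30 arrays 25, 30 and 30 were closest to their own number, as a hint that the numbers mark related arrays. The main fit did not use the numbers as a block, and a small mean r does not show that the arrays were unpaired.

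Between replicate numbers, the members called in the 2,4-D set (1) were 4 with dim probe sets left out and with 1 probe set per gene, 3 with eBayes trend and robust, and 2 with array weights, with equal array medians, with every probe set of a member and with the DMSO columns left out (NR1D2 and NR2F6). In the imazalil set (1) they were 0 without DMSO columns and 2 with every probe set. Leaving out a replicate gave 0 to 1 in the imazalil set and 0 to 0 in the 2,4-D set. Of coregulators, dim probe sets left out gave 1 in the fenbuconazole and 2 in the imazalil set, eBayes trend and robust 2 in the imazalil set, and repeated quantile normalization 1 in the 2,4-D set, with 0 to 1 in both of the latter sets without a replicate. Of target genes, 1 (CPT1A) passed at 10 µM imazalil against DMSO with the replicate block and with eBayes trend and robust, and 0 against the other 8 concentrations without any 1 replicate. Their calls between replicate numbers were 5, 8 and 11 with dim probe sets left out, 4 and 8 in the fenbuconazole and imazalil sets with 1 probe set per gene, 4 in the fenbuconazole set with eBayes trend and robust and 3 in the imazalil set without DMSO columns. Without a replicate they were 0 to 2, 0 to 3 and 0 to 5. The cause of these shifts was not tested. With dim probe sets left out or 1 probe set per gene, the adjustment ran over fewer probe sets, which can shift an adjusted p either way. With 3 arrays a group, differences whose intervals exclude 0, such as -0.68 for NR1I3 in the fenbuconazole set, did not pass after adjustment.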
